A study of Mus musculus with 2 samples.

Results

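Intercalated cells of the renal collecting duct move acid and base with a proton pump and a few anion exchangers, and 10 genes of that machinery were followed here in 2 mouse kidney sections. The genes were picked by symbol as the rows named Atp6v1g3, Atp6v0d2, Atp6v1b1, Atp6v0a4, Slc4a1, Slc4a9, Slc26a4, Foxi1, Insrr and Atp4a, which are 10 of the 32285 genes listed. Both sections came from C57BL/6 mice in which 1 ureter had been obstructed, and kidneys were taken on day 7. One mouse had been given SH045, an inhibitor of the cation channel TRPC6 per the series title, and the other is labelled Vehicle. No dose, sex or age was used here, and each group is 1 section of 1 mouse, so nothing below is a test between treatments. RNA was captured on 10x Genomics Visium slides, where each barcoded spot collects RNA from a small patch of tissue, often over cells of more than 1 type.

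The SH045 section held 790 spots and 22388623 UMIs (distinct captured RNA molecules), with a median of 27733 UMIs per spot. The section labelled Vehicle held 676 spots and 4327613 UMIs, with a median of 4932.5. Levels are therefore given as CPM, the UMIs of a gene per 1000000 UMIs of the section, each with an exact Poisson 95% interval that covers counting error only. Mitochondrial genes took 4.24% of UMIs in SH045 tissue and 10.4% in Vehicle-labelled tissue, and 335 grid places, and so their barcodes, were used in both. The tubular injury genes Havcr1 and Lcn2 stood at 992 and 1233 CPM in SH045 tissue, against 7 and 9 UMIs in all in Vehicle-labelled tissue, which goes against its label as an obstructed kidney and is why it is called by its label throughout (Vehicle-labelled tissue). The sections also differed in genes that mark kidney zones. Slc14a2, a urea transporter of the inner medulla, had 1850 UMIs in SH045 tissue and none in Vehicle-labelled tissue, which is at least 119-fold higher against a floor of 3 counts. Slc34a1, the phosphate transporter of the cortical proximal tubule, stood at 585 CPM in SH045 tissue and 4413 CPM in Vehicle-labelled tissue. The sum of 5 genes of podocytes, cells of the cortical glomeruli, was 176 CPM with SH045 and 198 CPM labelled Vehicle. For Slc34a1, zone and injury cannot be told apart here. The part of the injury genes, of the zones and of the mitochondrial share in the values that follow was not tested.

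By way of background, intercalated cells come in forms that work in opposite directions. Type A cells push protons into the urine with a vacuolar proton pump on their urinary face and return bicarbonate to the blood through the exchanger AE1, encoded by Slc4a1. Type B cells secrete bicarbonate in exchange for chloride through pendrin, encoded by Slc26a4, and carry AE4, encoded by Slc4a9, on the blood side. The forkhead transcription factor Foxi1 is needed for both forms to develop. Principal cells, their neighbours in the same duct, take up sodium and water.

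All 10 genes were lower in SH045 tissue. The sum of the 10 was 282 CPM in SH045 tissue (6313 UMIs) and 1236 CPM in Vehicle-labelled tissue (5351 UMIs), which is 4.39-fold lower (95% interval 4.23 to 4.55). Each of the 10 was lower by at least 1.5-fold. Across all 10463 genes that reached 10 CPM in at least 1 section, 11.8% were lower by that much and 52.2% were higher, and the median log2 ratio of all genes, SH045 over Vehicle on the log2(CPM + 1) scale, was 0.63. Set against that median, all 10 were again lower by at least 1.5-fold, where 25.7% of all genes were. Their own median log2 ratio was -2.15. When each section was divided by position into 4 blocks of similar spot number, the SH045 blocks lay wholly below the blocks labelled Vehicle for 9 of the 10, against 13.5% of all genes, and Atp6v0d2 was the exception. Blocks of 1 section share a mouse and a library and are not replicates. In bulk or spot data, fewer cells of a type and less RNA per cell cannot be told apart, which holds for every level given here.

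**Figure D1:**
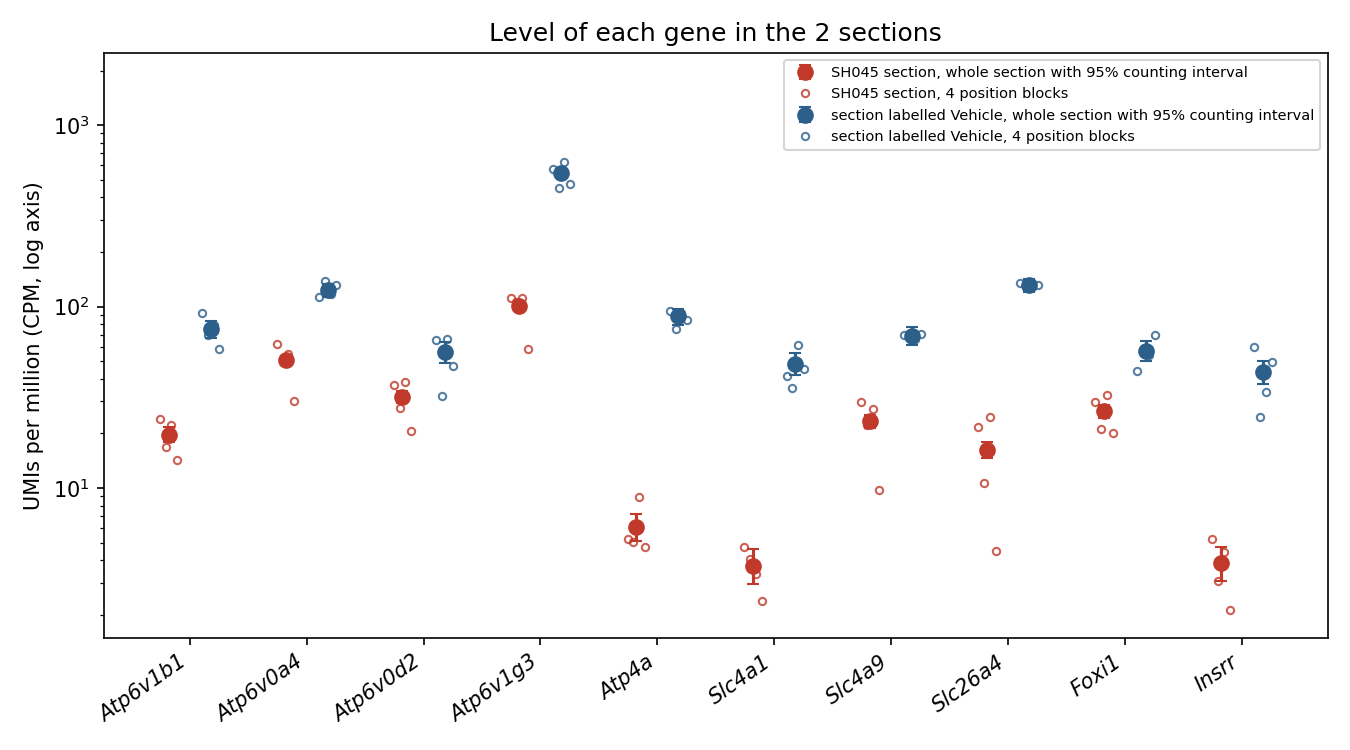
Level of each of the 10 genes in CPM (log axis), with the SH045 section in red on the left and the section labelled Vehicle in blue on the right of each pair. Filled points are section values with exact Poisson 95% intervals and open points are the 4 position blocks, which overlap between sections for Atp6v0d2 and are apart for the other 9.

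The vacuolar proton pump is built of a membrane sector and a soluble sector, and most of its subunits exist in one form used by every cell and another used by few. The 4 restricted subunits come first. Atp6v1g3 (ENSMUSG00000026394, chromosome 1, 138273738 to 138289462 in the mm10 build) encodes the kidney form of the G subunit of the pump's stalk. Its level was 100.4 CPM (96.3 to 104.6) in SH045 tissue and 546 CPM (524 to 568) in Vehicle-labelled tissue. The SH045 blocks ran over 58.6 to 112 CPM and the blocks labelled Vehicle over 452 to 625 CPM, so they lay far apart. That is 5.44-fold lower (5.13 to 5.76), the largest fold among the 4 pump subunits.

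Atp6v1b1 (ENSMUSG00000006269, chromosome 6, 83743017 to 83758855) encodes the B1 subunit, and loss of its human counterpart causes distal renal tubular acidosis with deafness. It stood at 19.7 CPM (17.9 to 21.6) in SH045 tissue and 74.9 CPM (66.9 to 83.5) in Vehicle-labelled tissue, 3.81-fold lower (3.29 to 4.41). Atp6v0a4 (ENSMUSG00000038600, chromosome 6, 38048483 to 38124586) encodes the a4 form of the membrane subunit beside the proton path, and its human counterpart is likewise a gene of distal renal tubular acidosis. It stood at 50.5 CPM (47.6 to 53.5) in SH045 tissue and 123 CPM (113 to 134) in Vehicle-labelled tissue, 2.44-fold lower (2.19 to 2.70). Neither gene's blocks overlapped. For Atp6v1b1 they ran over 14.2 to 23.9 CPM in SH045 tissue and 58.5 to 91.7 CPM in Vehicle-labelled tissue.

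Atp6v0d2 (ENSMUSG00000028238, chromosome 4, 19876838 to 19922566) encodes the d2 subunit that joins the sectors, and it is also used by osteoclasts and some macrophages. It had the smallest difference of the 10, with 31.8 CPM (29.5 to 34.2) in SH045 tissue and 55.9 CPM (49.1 to 63.4) in Vehicle-labelled tissue, 1.76-fold lower (1.52 to 2.04). Its blocks ran over 20.6 to 38.4 CPM in SH045 tissue and 32.0 to 66.0 CPM in Vehicle-labelled tissue, and so overlapped. Its log2 ratio of -0.80 was -0.48 with spots thinned to 2500 UMIs, and -0.34 without the Vehicle-labelled region led by Klk1 (a setting chosen after seeing the data), both under 1.5-fold. Of 7 measured macrophage and osteoclast genes, 6 were higher in SH045 tissue (52.2% of all genes were), Lyz2 most abundant among them at 601 CPM against 39.7 CPM in Vehicle-labelled tissue, and 1, Acp5, was lower, and the list's sum was 1358 CPM in SH045 tissue and 255 CPM in Vehicle-labelled tissue. The osteoclast fusion genes Dcstamp and Ocstamp had 8 and 6 UMIs in SH045 tissue, against 0 and 2 in Vehicle-labelled tissue. With every spot thinned to 2500 UMIs, spots of the SH045 section with an Atp6v0d2 UMI held a mean of 3.41 macrophage and osteoclast UMIs and those without held 3.47, so these genes were not more abundant where Atp6v0d2 was found.

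Of 18 general subunit and accessory genes, 3 were lower by at least 1.5-fold, 2 were higher and 13 lay between, against 11.8% and 52.2% of all genes, and their median log2 ratio was -0.23. The most abundant of them was Atp6v0c, the proteolipid of the membrane ring, at 699.9 CPM in SH045 tissue and 1044 CPM in Vehicle-labelled tissue, which is between. Atp6v1e1 and Atp6v1f, stalk subunits, were lower, Atp6v1e1 with 242 CPM in SH045 tissue and 656 CPM in Vehicle-labelled tissue and Atp6v1f with 347 CPM with SH045 and 672 CPM labelled Vehicle. The general B2 subunit Atp6v1b2 stood at 137.5 CPM in SH045 tissue and 238.5 CPM in Vehicle-labelled tissue. Atp6v0a1 and Tcirg1, which encode the a1 and a3 forms in place of a4, were both higher in SH045 tissue, with 63.4 and 62.0 CPM there against 34.7 and 32.8 CPM in Vehicle-labelled tissue. Relative to the median of all genes none of the 18 was higher by 1.5-fold (25.4% of all genes were) and 12 were lower (25.7% of all genes were).

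Setting each restricted subunit against its general partner removes the scale of the section. For every 100 UMIs of Atp6v1b2 there were 14.3 of Atp6v1b1 in SH045 tissue and 31.4 in Vehicle-labelled tissue, a ratio 2.20-fold lower (1.86 to 2.58). The ratio of Atp6v0a4 to Atp6v0a1 was 79.6 per 100 in SH045 tissue and 355 per 100 in Vehicle-labelled tissue, and that of Atp6v1g3 to Atp6v1g1 was 39.0 per 100 with SH045 and 148 per 100 labelled Vehicle. The smallest gap among the members was between Atp6v0d2 and Atp6v0d1, at 20.9 per 100 in SH045 tissue and 40.3 per 100 in Vehicle-labelled tissue. Atp6v1c2, a restricted C subunit that is not among the 10, stood at 13.0 CPM in SH045 tissue and 83.6 CPM in Vehicle-labelled tissue, and its ratio to Atp6v1c1 was 11.3 per 100 with SH045 and 86.4 per 100 labelled Vehicle. In each of these pairs the restricted form was the one further below in SH045 tissue.

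Atp4a (ENSMUSG00000005553, chromosome 7, 30712209 to 30725534) encodes the catalytic subunit of the proton and potassium pump best known from acid secretion in the stomach. It had 6.12 CPM (5.14 to 7.23) in SH045 tissue and 88.3 CPM (79.6 to 97.6) in Vehicle-labelled tissue. Blocks ran over 4.75 to 8.92 CPM in SH045 tissue and 75.4 to 94.5 CPM in Vehicle-labelled tissue. At 14.4-fold lower (11.8 to 17.7) it had the largest difference of the 10, and 12 of the 10463 genes had a lower log2 ratio. Its partner in the stomach, the beta subunit gene Atp4b, had no UMI in either section. Atp12a, the catalytic subunit of the colonic form of the pump, had 44 UMIs in SH045 tissue and 2 in Vehicle-labelled tissue, under the level needed to be measured.

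The 3 anion exchangers were lower by unequal amounts. Slc4a1 (ENSMUSG00000006574, chromosome 11, 102348820 to 102365281) stood at 3.71 CPM (2.95 to 4.60) in SH045 tissue and 48.5 CPM (42.2 to 55.6) in Vehicle-labelled tissue, 13.1-fold lower (10.1 to 17.1). Slc26a4 (ENSMUSG00000020651, chromosome 12, 31519814 to 31560055) stood at 16.3 CPM (14.6 to 18.0) in SH045 tissue and 131 CPM (120.2 to 142) in Vehicle-labelled tissue, 8.04-fold lower (7.04 to 9.20). Slc4a9 (ENSMUSG00000024485, on chromosome 18) stood at 23.3 CPM (21.4 to 25.4) in SH045 tissue and 68.9 CPM (61.3 to 77.1) in Vehicle-labelled tissue, 2.95-fold lower (2.55 to 3.41). The blocks of no exchanger overlapped between sections.

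The blocks labelled Vehicle were close together for the type B genes, at 128 to 134 CPM for Slc26a4 and 66.0 to 70.8 CPM for Slc4a9. The SH045 blocks were spread, at 4.51 to 24.7 CPM for Slc26a4 and 9.73 to 30.0 CPM for Slc4a9. Both genes belong to type B cells, yet their balance differed: there were 69.7 Slc26a4 UMIs per 100 Slc4a9 UMIs in SH045 tissue and 190 per 100 in Vehicle-labelled tissue, a ratio of ratios of 0.367 (0.301 to 0.448). Slc4a1 per 100 Slc26a4 UMIs, the type A exchanger against the type B one, was 22.8 in SH045 tissue and 37.1 in Vehicle-labelled tissue.

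Red cell precursors also express Slc4a1, so their genes were read beside it. The sum of the erythroid list was 94.6 CPM in SH045 tissue and 47.1 CPM in Vehicle-labelled tissue, with SH045 blocks of 60.7 to 169.7 CPM and blocks labelled Vehicle of 36.1 to 54.8 CPM that did not overlap. Of its 11 genes 10 were found and 4 were measured, 3 of them higher (52.2% of all genes were) and 1, Slc25a37, between. For each of these 4 genes on its own the blocks overlapped between sections. Relative to the median of all genes 1 of the 4 was higher (25.4% of all genes were). The haemoglobin gene Hbb-bs stood at 26.6 CPM in SH045 tissue and 11.1 CPM in Vehicle-labelled tissue. Alas2, which marks red cell precursors, had 8 UMIs in SH045 tissue and none in Vehicle-labelled tissue, and Rhag had none in either. In Vehicle-labelled tissue thinned to 2500 UMIs a spot, the 53 spots with a Slc4a1 UMI held a mean of 0.0189 erythroid UMIs, against 0.154 in the 508 spots without one. In SH045 tissue the means were 0.286 in the 7 spots with a Slc4a1 UMI and 0.289 in the 781 without.

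Foxi1 (ENSMUSG00000047861, chromosome 11, 34204341 to 34208089), the forkhead factor, stood at 26.4 CPM (24.4 to 28.7) in SH045 tissue and 56.8 CPM (50 to 64.4) in Vehicle-labelled tissue, 2.15-fold lower (1.85 to 2.50). The SH045 blocks ran over 20.2 to 32.5 CPM and those labelled Vehicle over 44.4 to 70.1 CPM, with no overlap. Insrr (ENSMUSG00000005640, chromosome 3, 87796908 to 87816101) encodes a receptor of the insulin receptor family that senses alkaline fluid outside the cell and in the kidney belongs to type B cells. It stood at 3.84 CPM (3.07 to 4.74) in SH045 tissue and 43.7 CPM (37.7 to 50.4) in Vehicle-labelled tissue, 11.4-fold lower (8.77 to 14.8). Its blocks ran over 2.14 to 5.23 CPM in SH045 tissue and 24.5 to 59.6 CPM in Vehicle-labelled tissue. The factor was thus among the least different of the 10 and the alkali sensor among the most.

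Measured per 100 Foxi1 UMIs, the other 9 genes formed a graded order. Atp4a stood at 23.1 per 100 in SH045 tissue and 155 per 100 in Vehicle-labelled tissue, a ratio of 0.149. Slc4a1 stood at 14 per 100 with SH045 and 85.4 labelled Vehicle (0.165), and Insrr at 14.5 with SH045 and 76.8 labelled Vehicle (0.189). Slc26a4 stood at 61.5 with SH045 and 230 labelled Vehicle (0.267), and Atp6v1g3 at 380 with SH045 and 960 labelled Vehicle (0.396). Nearer to Foxi1 came Atp6v1b1, at 74.3 per 100 in SH045 tissue and 132 per 100 in Vehicle-labelled tissue (0.565), and Slc4a9, at 88.2 per 100 with SH045 and 121 per 100 labelled Vehicle (0.728, 95% interval 0.589 to 0.899). For Atp6v0a4 and Atp6v0d2 the interval of the ratio included 1, at 0.883 (0.733 to 1.06) and 1.22 (0.986 to 1.51).

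Foxi1 belongs to the forkhead family, whose members bind a short core that reads TGTTTA or TGTTTG, and the starts of the genes were searched for these letters on both strands (TAAACA and CAAACA on the opposite one), where no match overlapped another. RefSeq gave a start on the GRCm38.p6 build for 6 of the 10 genes, from 250 bases before it to 50 after. The letters stood in 4 of those 6 windows, printed here because they belong to genes that were lower together with Foxi1, with the core in capitals. The window of Atp6v1b1 is chr6:83742767-83743066 on the plus strand, that of Atp6v1g3 chr1:138273488-138273787 on the plus strand, that of Atp4a chr7:30711959-30712258 on the plus strand and that of Slc26a4 chr12:31559935-31560234 on the minus strand.
Atp6v1b1: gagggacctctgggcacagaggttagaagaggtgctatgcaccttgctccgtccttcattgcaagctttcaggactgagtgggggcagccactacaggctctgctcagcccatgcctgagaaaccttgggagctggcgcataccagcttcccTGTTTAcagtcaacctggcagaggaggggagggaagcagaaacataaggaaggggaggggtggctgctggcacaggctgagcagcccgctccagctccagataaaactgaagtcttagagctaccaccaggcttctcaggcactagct
Atp6v1g3: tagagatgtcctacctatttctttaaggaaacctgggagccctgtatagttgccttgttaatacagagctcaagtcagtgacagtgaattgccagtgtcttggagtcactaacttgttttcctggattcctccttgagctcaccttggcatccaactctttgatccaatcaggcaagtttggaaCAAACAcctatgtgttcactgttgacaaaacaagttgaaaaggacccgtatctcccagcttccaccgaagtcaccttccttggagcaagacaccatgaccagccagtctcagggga
Atp4a: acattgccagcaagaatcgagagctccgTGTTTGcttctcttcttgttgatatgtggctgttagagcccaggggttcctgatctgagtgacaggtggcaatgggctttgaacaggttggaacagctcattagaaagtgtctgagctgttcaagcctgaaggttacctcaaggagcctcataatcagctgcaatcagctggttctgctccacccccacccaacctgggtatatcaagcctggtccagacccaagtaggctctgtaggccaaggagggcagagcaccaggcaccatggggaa
Slc26a4: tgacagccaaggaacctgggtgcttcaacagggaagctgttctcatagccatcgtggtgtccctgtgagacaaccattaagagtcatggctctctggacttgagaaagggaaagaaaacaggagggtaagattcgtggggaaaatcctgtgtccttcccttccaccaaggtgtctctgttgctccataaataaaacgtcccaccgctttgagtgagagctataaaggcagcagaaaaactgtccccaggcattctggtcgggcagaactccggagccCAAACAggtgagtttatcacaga

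The core began 98 bases before the start in Atp6v1b1, 66 before in Atp6v1g3 (opposite strand), 222 before in Atp4a and 28 after in Slc26a4 (opposite strand). The start used for the Slc26a4 window lies inside the gene span given above and not at its limit of 31560055. The 28 bases are counted from the start used. Of 32851 promoters of the same length, 13.4% hold TGTTTA, 18.2% hold TGTTTG and 28.2% hold either. The windows of Atp6v0a4 and Foxi1 hold neither. A match is a description of letters and not a binding site.

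Because genes that mark kidney zones differed, the 10 genes were also set against the principal cells that share the collecting duct. Of 10 principal cell genes, 7 were lower by at least 1.5-fold in SH045 tissue, 2 were higher and 1 lay between, against 11.8% and 52.2% of all genes. The list summed to 734 CPM in SH045 tissue and 1476 CPM in Vehicle-labelled tissue. Hsd11b2, which protects the mineralocorticoid receptor from cortisol and corticosterone, stood at 149 CPM in SH045 tissue and 346 CPM in Vehicle-labelled tissue, and the potassium channel Kcnj1 at 94.5 CPM with SH045 and 313 CPM labelled Vehicle. Aqp2, the water channel regulated by vasopressin, stood at 167 CPM in SH045 tissue and 344 CPM in Vehicle-labelled tissue. Per 100 principal cell UMIs there were 38.4 UMIs of the 10 genes in SH045 tissue and 83.8 in Vehicle-labelled tissue, a ratio of 0.458 (0.437 to 0.480). The gap was thus 2.18-fold on this scale where it was 4.39-fold in CPM. This ratio also varies with place. In SH045 tissue Aqp2 stood at 143 CPM and the 10 genes at 352 CPM in the 2 steps of spots nearest the tissue edge. From step 7 on they stood at 293 and 179 CPM. How far the zones cut enter the ratio was not tested.

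On the principal cell scale the genes separated. Foxi1 was 3.60 per 100 in SH045 tissue and 3.85 per 100 in Vehicle-labelled tissue, a ratio of 0.935 whose interval of 0.802 to 1.09 included 1. Atp6v0d2 was 4.32 per 100 in SH045 tissue and 3.79 per 100 in Vehicle-labelled tissue (1.14, 0.982 to 1.33). Further down were Atp6v0a4 at a ratio of 0.825, Slc4a9 at 0.680, Atp6v1b1 at 0.528 and Atp6v1g3 at 0.370. Lowest were Slc26a4 at 0.250, Insrr at 0.177, Slc4a1 at 0.154 and Atp4a at 0.139. Of the 2 type B exchangers, Slc26a4 was thus among the 4 lowest and Slc4a9 was not.

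**Figure D2:**
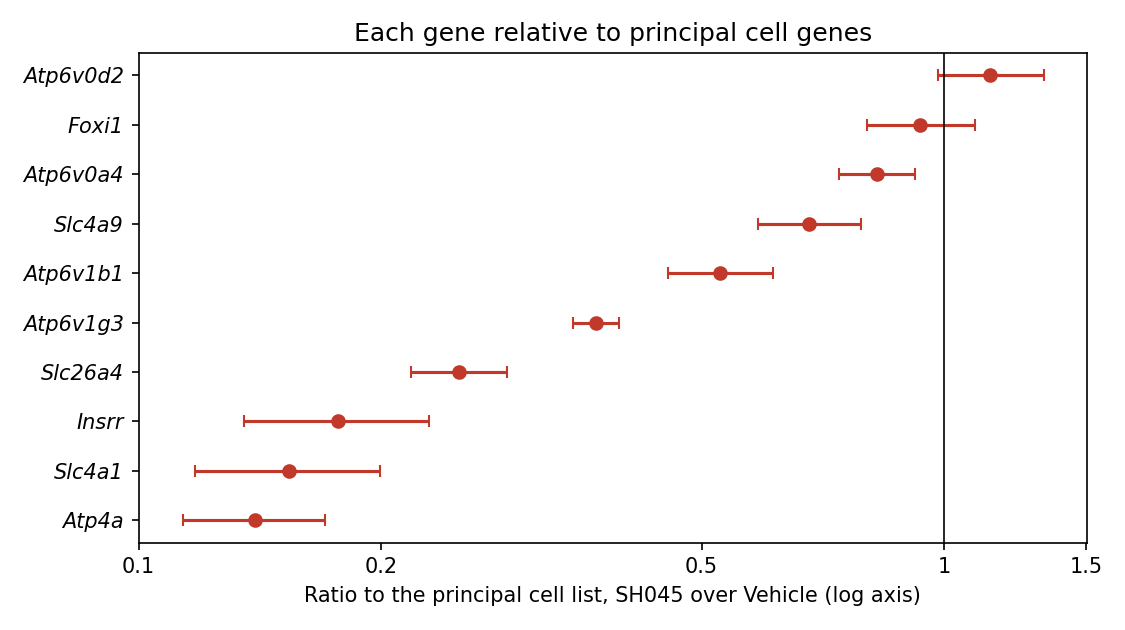
Ratio of SH045 over Vehicle for each of the 10 genes, each counted relative to the UMIs of the principal cell list, on a log axis with 95% intervals that cover counting error only. Foxi1 (0.935) and Atp6v0d2 (1.14) have intervals that include 1 (solid line), and Atp4a (0.139), Slc4a1 (0.154) and Insrr (0.177) lie lowest.

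Set against 10 genes of the distal convoluted and connecting tubule, the segments just upstream, the direction turned: the 10 genes counted 35.8 per 100 UMIs of that list in SH045 tissue and 5.29 per 100 in Vehicle-labelled tissue. That list was itself lower in SH045 tissue for 9 genes (11.8% of all genes) and higher for 1, Trpv5 (52.2%), and summed to 787 CPM in SH045 tissue and 23361 CPM in Vehicle-labelled tissue. Klk1, a secreted protease of the connecting tubule, and S100g, a calcium-binding protein, stood at 163 and 157 CPM in SH045 tissue, against 11178 and 9354 CPM in Vehicle-labelled tissue. Calb1, another calcium-binding protein, stood at 29.3 CPM in SH045 tissue and 1311 CPM in Vehicle-labelled tissue. Klk1 and S100g made up 40.6% of its UMIs in SH045 tissue and 87.9% in Vehicle-labelled tissue.

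Other genes listed for intercalated cells stood on both sides of the threshold. Of 16 measured out of 20 listed, 6 were lower by at least 1.5-fold, 8 were higher and 2 lay between, against 11.8% lower and 52.2% higher among all genes. Hmx2, a homeobox factor, stood at 4.02 CPM in SH045 tissue and 35.4 CPM in Vehicle-labelled tissue. Spink8 stood at 24.3 CPM in SH045 tissue and 136 CPM in Vehicle-labelled tissue, and Oxgr1, the receptor for oxoglutarate on type B cells, at 6.79 CPM with SH045 and 27.0 CPM labelled Vehicle. Bsnd, an accessory subunit of chloride channels, was also lower, with 18.3 CPM in SH045 tissue and 66.8 CPM in Vehicle-labelled tissue.

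In contrast, Kit, a receptor kinase found on intercalated cells and also on mast cells, stood at 13.5 CPM (303 UMIs) in SH045 tissue and 3.70 CPM (16 UMIs) in Vehicle-labelled tissue. P2ry14, a receptor for UDP-glucose on type A cells, stood at 18.8 CPM in SH045 tissue and 1.85 CPM in Vehicle-labelled tissue, and Cftr, a chloride channel, at 14.2 CPM with SH045 and 2.77 CPM labelled Vehicle. Aqp6, a water channel of vesicles in type A cells that hold the proton pump, stood at 45.3 CPM in SH045 tissue and 27.0 CPM in Vehicle-labelled tissue. Adgrf5, an adhesion receptor, stood at 78.6 CPM in SH045 tissue and 34.0 CPM in Vehicle-labelled tissue. Aqp6 and Adgrf5 did not pass 1.5-fold relative to the median of all genes, where 6 of the 16 were higher (25.4% of all genes) and 8 were lower (25.7%). Other cell types in a spot can add to these counts. The sum of 5 endothelial genes, for example, was 478 CPM in SH045 tissue and 281 CPM in Vehicle-labelled tissue. Whether the higher genes of this list came from intercalated cells was not tested. Of the genes named here, Kit, P2ry14 and Cftr reached 10 CPM only in SH045 tissue, and Hmx2 and Oxgr1 only in Vehicle-labelled tissue. The direction of these genes, though not the size of their difference, follows from the rule for a measured gene.

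Genes that set collecting duct cell fate stood higher in SH045 tissue as well, for 8 of 9 measured, against 52.2% of all genes, and 6 of 9 relative to the median of all genes, against 25.4%. Notch signalling steers duct cells towards the principal fate. Notch1 stood at 38.1 CPM in SH045 tissue and 11.5 CPM in Vehicle-labelled tissue, its target Hes1 at 80.2 CPM with SH045 and 22.2 CPM labelled Vehicle, its ligand Jag1 at 51.7 CPM with SH045 and 10.9 CPM labelled Vehicle, and Adam10, a protease that cleaves Notch, at 117 CPM with SH045 and 28.2 CPM labelled Vehicle. Tfcp2l1, a factor that acts with Foxi1 in duct cells, stood at 177 CPM in SH045 tissue and 150 CPM in Vehicle-labelled tissue, which is within 1.5-fold and below the shift of all genes. Injured tubule genes were higher for 9 of 9. The Notch genes and the injury genes are expressed by many cell types, and their part in the members' levels was not tested.

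Ammonia carries protons in the urine, and of 7 genes of its supply and transport 4 were lower, 2 were higher and 1 lay between, against 11.8% lower and 52.2% higher among all genes. Relative to the median of all genes none was higher. Rhcg, the ammonia channel of intercalated and other duct cells, stood at 48.0 CPM in SH045 tissue and 226.5 CPM in Vehicle-labelled tissue. Rhbg, its basolateral relative, stood at 23.3 CPM in SH045 tissue and 144 CPM in Vehicle-labelled tissue. Of the enzymes that supply ammonia or use its carbon, Glud1 stood at 255 CPM in SH045 tissue and 391 CPM in Vehicle-labelled tissue, and Pck1 at 96.2 CPM with SH045 and 355 CPM labelled Vehicle. Of 6 carbonic anhydrase genes 4 were lower (11.8% of all genes) and 1 higher (52.2%). Car15 stood at 109 CPM in SH045 tissue and 265 CPM in Vehicle-labelled tissue, and Car12 at 61.1 CPM with SH045 and 221 CPM labelled Vehicle. Car2, the cytosolic enzyme that supplies protons and bicarbonate in these cells, lay between, with 264 CPM in SH045 tissue and 367 CPM in Vehicle-labelled tissue. Acid and base transporters of other segments were lower for 2 of 6 measured (11.8% of all genes) and higher for 1 (52.2%), with Slc26a1 lower, at 28.9 CPM in SH045 tissue and 113 CPM in Vehicle-labelled tissue, and Slc4a2 between, at 69.1 CPM with SH045 and 70.5 CPM labelled Vehicle. Slc4a4, the bicarbonate exit of the proximal tubule, lay between at 157 CPM in SH045 tissue and 236 CPM in Vehicle-labelled tissue.

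Across spots, the 10 genes were found in a smaller share of the SH045 section once depth was made equal. Every spot was thinned to 2500 UMIs, which left out 2 SH045 spots and 115 spots labelled Vehicle. A UMI of at least 1 member was then present in 43.1% of 788 SH045 spots and 81.5% of 561 spots labelled Vehicle, where the unthinned shares were 95.1% with SH045 and 89.8% labelled Vehicle. Atp6v1g3 was found in 19.4% of SH045 spots (exact binomial 95% interval 16.7 to 22.4) and 54.0% of spots labelled Vehicle (49.8 to 58.2). Slc26a4 was found in 2.66% of SH045 spots and 25.7% of spots labelled Vehicle, and Slc4a1 in 0.888% with SH045 and 9.45% labelled Vehicle. The intervals were apart, with the lower share in SH045 tissue, for 9 of the 10 genes and for 11.2% of all measured genes, and Atp6v0d2 was again the exception, with 7.99% of SH045 spots (6.20 to 10.1) and 9.80% of spots labelled Vehicle (7.47 to 12.6). Aqp6 ran the other way, in 11.8% of SH045 spots and 6.24% of spots labelled Vehicle.

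Spots holding several members at once were rare in SH045 tissue, where each gene alone was also found in a smaller share of spots. Whether they were rarer than those single shares would give was not tested. At 2500 UMIs, 5 of 788 SH045 spots held 4 or more of the 10 genes, 0.635% (0.206 to 1.47), against 90 of 561 spots labelled Vehicle, 16.0% (13.1 to 19.3). The most members in a spot were 4 in SH045 tissue and 9 in Vehicle-labelled tissue. Among spots labelled Vehicle with a Foxi1 UMI, 50 of 62 (80.6%) also held Atp6v1g3, against 50.7% of the spots without Foxi1, and 42 of 51 spots with Insrr did (82.4%), against 51.2% of those without. In SH045 tissue 16 of 47 Foxi1 spots held Atp6v1g3, 34.0%, against 18.5% of the spots without Foxi1.

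Markers of opposite cell forms could meet in a spot. In SH045 tissue none of the 7 spots with Slc4a1 held Slc26a4, against 2.69% of the 781 spots without Slc4a1. With only 7 spots these shares cannot be compared. In Vehicle-labelled tissue, 23 of 53 spots with the type A exchanger Slc4a1 also held the type B exchanger Slc26a4 (43.4%), against 23.8% of spots without Slc4a1. Insrr and Slc26a4, both of type B cells, met in 25 of the 51 Insrr spots (49.0%), against 23.3% of the spots without Insrr. A spot can cover cells of both forms, and no cell can be assigned a form from these counts.

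**Figure D3:**
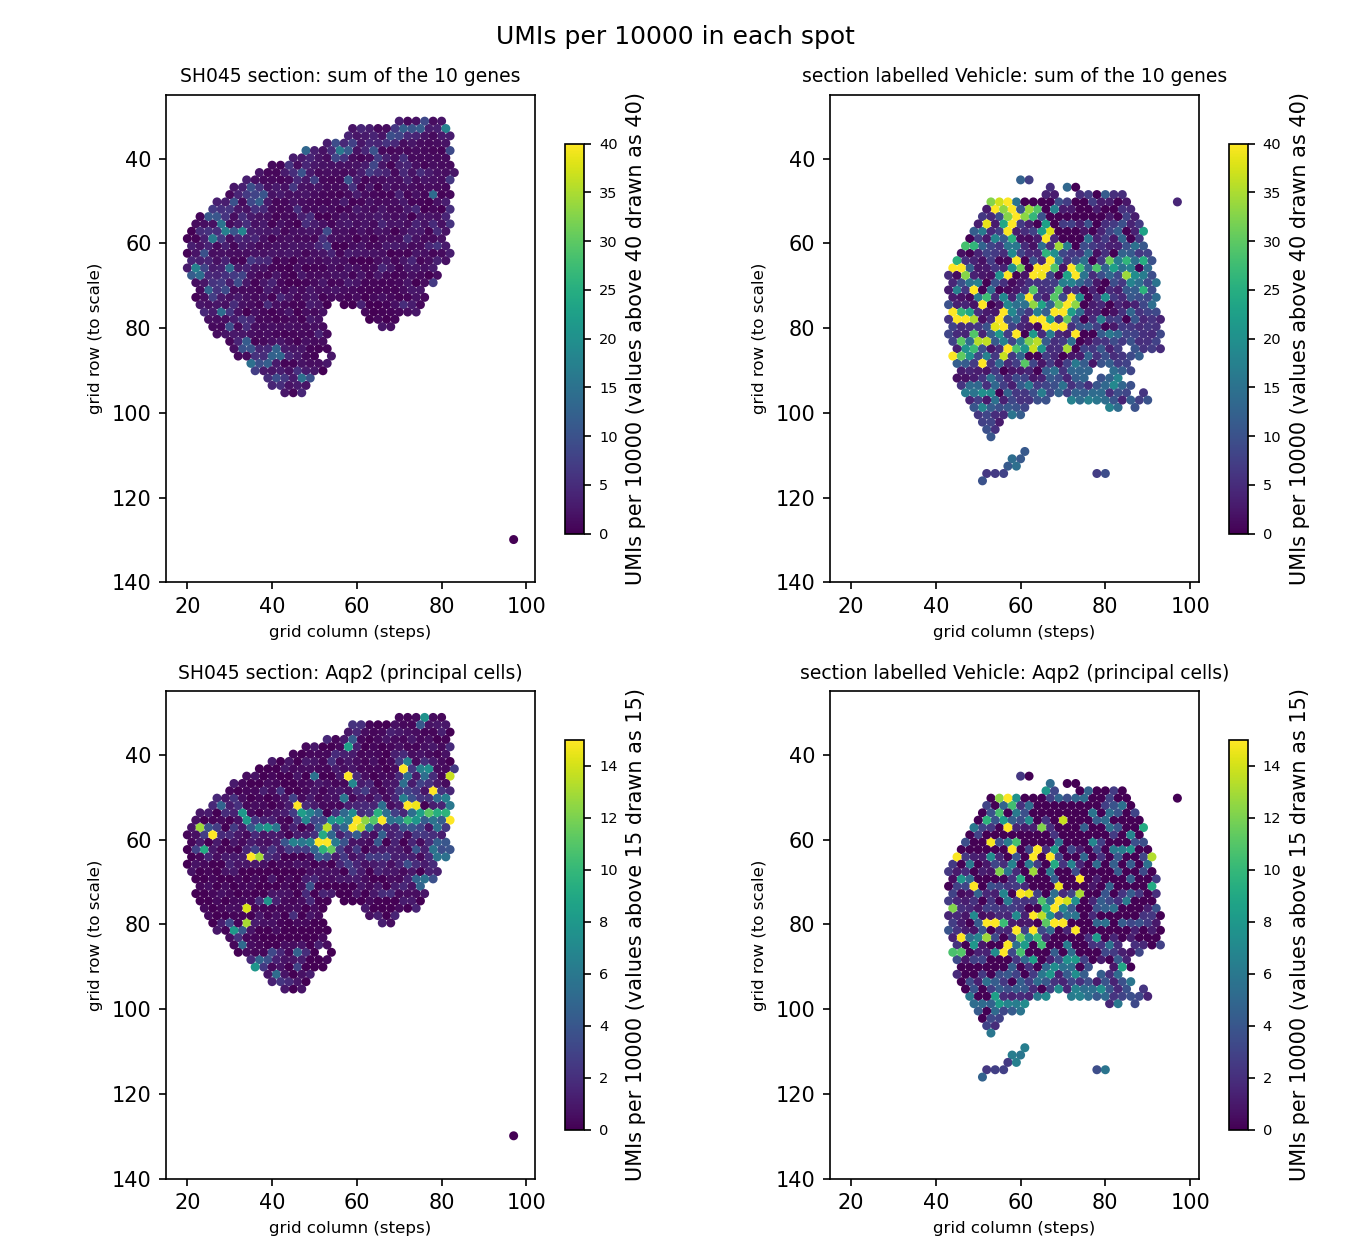
UMIs per 10000 in each spot at its place on the slide grid, for the sum of the 10 genes (top, values above 40 drawn as 40) and for Aqp2 of principal cells (bottom, values above 15 drawn as 15), with the SH045 section left and the section labelled Vehicle right on the same axes and colour scales. Bright spots of the 10 genes are scarce in SH045 tissue, whose sum is 4.39-fold lower, while bright spots of Aqp2 occur in both.

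The genes varied together across spots within each section, as far as sparse counts show. Pearson correlations of log values are given over 790 SH045 spots and 676 spots labelled Vehicle, which share a library and differ in depth. Against the sum of the other 9, Atp6v1g3 had r = 0.68 in SH045 tissue and 0.63 in Vehicle-labelled tissue, the highest of the 10 in both. Slc26a4 had 0.57 with SH045 and 0.47 labelled Vehicle, and Foxi1 0.54 with SH045 and 0.42 labelled Vehicle. Atp6v0a4 was at 0.17 with SH045 and 0.14 labelled Vehicle, and Atp4a at 0.17 with SH045 and 0.23 labelled Vehicle. For Atp6v0a4 in SH045 tissue the closest gene was Slc34a1, a proximal tubule gene, at 0.34.

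Outside the 10, the genes whose spot pattern was most like their sum included several of the distal tubule and duct. In SH045 tissue these were led by Trpv5 (r = 0.62), Spink8 (0.61) and the sodium channel subunit Scnn1g (0.60), among 11561 genes compared. In Vehicle-labelled tissue they were led by Klk1 (0.59), Rhcg (0.55), Krt7 (0.54) and S100g (0.54), among 5179. Of the 10 closest genes in each section 4 were shared: Hsd11b2, Rhcg, Scnn1b and Spink8. Trpv5 had r = 0.12 in Vehicle-labelled tissue.

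In SH045 tissue the sum was lower the further a spot lay from the tissue edge. It was 352 CPM in the first 2 steps of spots, 317 CPM in steps 3 to 4, 228 CPM in steps 5 to 6 and 179 CPM from step 7 on, over 237, 199, 160 and 194 spots. Slc26a4 stood at 24.9, 18.5, 11.8 and 4.02 CPM over the same steps, and Foxi1 at 33.6, 33.5, 17.1 and 15.2 CPM. Atp6v0a4 hardly varied with depth into the tissue, at 53.6, 47.0, 54.2 and 46.3 CPM. Aqp2 ran differently, at 143, 128, 135 and 293 CPM, and Aqp6 at 50.3, 42.5, 32.1 and 54.8 CPM. In Vehicle-labelled tissue the sum was 1109, 1156, 831 and 1884 CPM over the same steps, highest in the deepest spots. Steps there follow the outline of the spots with counts, which differs from that of the tissue flag.

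Spots were also clustered without the 10 genes and without the other intercalated genes, and regions are called by their leading genes. In SH045 tissue the region led by Slc12a3 and Pgam2 (169 spots) had the highest sum, 586 CPM (566 to 607), of 9 regions, and the region led by Col6a4 and Krt14 the lowest, 112.5 CPM. It was the highest region for 9 of the 10 genes, and Atp6v0a4 was highest in the region led by Slc22a8 and Acmsd, at 92.8 CPM. In Vehicle-labelled tissue the region led by Klk1 and Tmem52 (47 spots) had 4496 CPM (4269 to 4733) and was the highest of 5 for all 10 genes. That region held 6.95% of the section's spots and 27.3% of its member UMIs. The lowest region there, led by Pllp and Ggct, had 544 CPM (505 to 585).

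**Figure D4:**
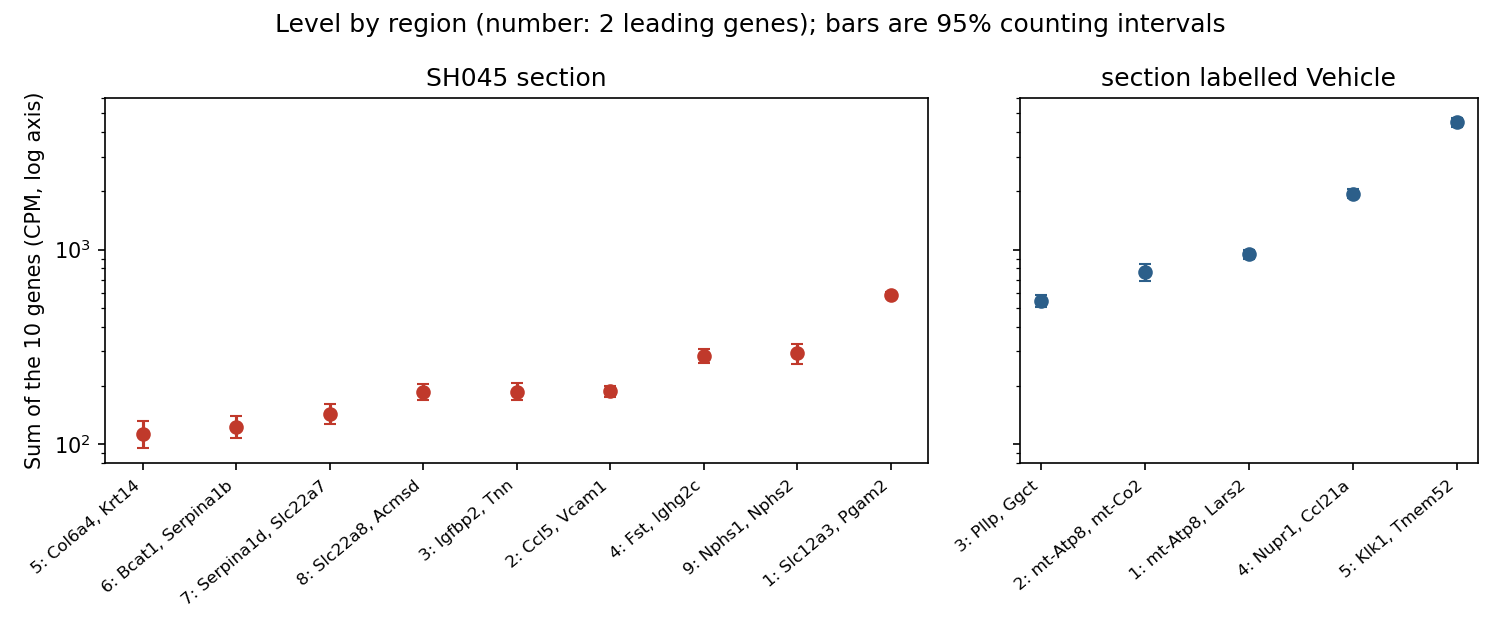
Sum of the 10 genes in each region in CPM (log axis) with exact Poisson 95% intervals, for the 9 SH045 regions (left) and the 5 regions of the section labelled Vehicle (right), each set in order from low to high and named by leading genes. The highest SH045 region, at 586 CPM, lies just above the lowest region labelled Vehicle, at 544 CPM.

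For 5 of the 10 genes the highest SH045 region lay below the lowest region labelled Vehicle, as it did for 3.82% of all 10463 measured genes. With finer clustering into 13 SH045 regions and 6 labelled Vehicle it did so for 4 of the 10, without Atp6v0a4, and for 3.09% of all genes. Of the 5, the ranges were apart for Slc26a4 (2.21 to 44.1 CPM with SH045, 53.4 to 364 CPM labelled Vehicle), Slc4a1 (0.541 to 8.22 CPM with SH045, 15.8 to 126 CPM labelled Vehicle) and Atp4a (3.08 to 11.4 CPM with SH045, 53.4 to 191 CPM labelled Vehicle). Insrr and Atp6v0a4 were the others. For both, and for Slc26a4 too, the region values of the sections came close to each other. Those of Atp6v0a4 ran over 22.1 to 92.8 CPM in SH045 tissue and 98.5 to 188 CPM in Vehicle-labelled tissue. Those of Insrr ran over 0.735 to 8.78 CPM with SH045 and 10.6 to 166 CPM labelled Vehicle, where the lowest value rests on 5 UMIs. For the other 5 the ranges overlapped, Foxi1 at 7.30 to 56.8 CPM in SH045 regions and 18.0 to 216 CPM in regions labelled Vehicle.

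Per 100 Foxi1 UMIs, in the 7 SH045 regions and 5 regions labelled Vehicle with at least 20 Foxi1 UMIs, the ranges were apart for 6 of 9 genes, against 0.249% of all measured genes. That cutoff left out SH045 regions only. Among those left out, the region led by Serpina1d and Slc22a7 (14 Foxi1 UMIs) had Atp6v1g3 at 550 and Insrr at 35.7 per 100. Both values lie within the ranges labelled Vehicle, so these 2 genes were apart only with the cutoff. With the finer clustering and the same cutoff the ranges were apart for 4 of 9, without Slc4a9 and Insrr, against 0.191% of all genes. Slc4a1 was at 4.76 to 15.1 per 100 in SH045 regions and 58.6 to 119 per 100 in regions labelled Vehicle. Slc26a4 was at 9.43 to 77.6 per 100 in SH045 regions and 169 to 296 per 100 in regions labelled Vehicle, and Atp6v1g3 at 224 to 437.5 per 100 with SH045 and 548 to 1245 per 100 labelled Vehicle. Atp6v0d2 overlapped, at 96.2 to 176 per 100 in SH045 regions and 56.5 to 140 per 100 in regions labelled Vehicle.

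Within SH045 tissue Aqp6 was highest, at 125 CPM, in the region led by Fst, Ighg2c and Aqp2, and stood at 59.6 CPM in the Slc12a3-led region. Slc26a4 stood at 8.26 CPM in the region led by Fst and at 44.1 CPM in the Slc12a3-led region. Slc4a1, the type A exchanger, was likewise lower in the region led by Fst, at 4.65 CPM, than in the Slc12a3-led region, at 8.22 CPM. Foxi1 was present in both, at 34.1 CPM in the region led by Fst and 56.8 CPM in the Slc12a3-led one.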

How the data were processed

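The deposited files hold raw UMI counts per gene and spot, and spot positions. Space Ranger 2.0.1 made the counts, per the file headers, on the mm10 build, per the submitters' processing notes. How reads were aligned is not given in the sources used here. The tissue flag marked all 790 spots of the SH045 matrix and 570 of the 676 spots of the Vehicle matrix. Among the Vehicle positions it marked 1210 places in all, so many flagged places have no counts in that matrix. Which outline is right is not known. Every spot in a matrix was used, and the blocks, edge steps and maps of Vehicle-labelled tissue follow those spots.

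Counts were summed per section and scaled to CPM (Python 3.11.15, numpy 2.4.6, scipy 1.17.1, pandas 2.3.3). With 1 section per group no test was planned or run. Intervals are exact Poisson for CPM, exact conditional binomial for folds and Clopper-Pearson for shares of spots, all at 95%, and cover counting error only. Log2 ratios use a pseudocount of 1 CPM, which understates ratios of low genes. A gene was measured at 10 CPM or more in at least 1 section. Regions come from Leiden clustering (scanpy 1.11.5, leidenalg 0.10.2) and no doublet caller was run. Folds, their intervals, the calls and the thinning were tested on simulated data, while clustering and correlations were not. TMM factors came from edgeR 4.0.16.

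The naming rule took all 10 members, the 3 genes of highest level in each list, genes set beside a member, and the 10 genes per section most like the members across spots. Lists for cell types not compared with the members were not named by it. Several genes named from the intercalated, cell fate, ammonia and marker lists (such as Hmx2, Oxgr1, Bsnd, Kit, P2ry14, Cftr, Aqp6, Notch1, Jag1, Rhcg, Rhbg, Alas2 and Dcstamp) fall outside the first parts of that rule and were chosen after their values were seen. Some genes that the rule takes are counted in their lists but not reported here by name. The members, lists and promoter letters were chosen with earlier results of these data known.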

Additional observations from a re-analysis of the deposited data

How the results depend on the processing

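The count of members lower by 1.5-fold was 10 in every setting tried except 3, where it was 9: with spots thinned to 2500 UMIs, with a 2-fold threshold, and without the Klk1-led region of the section labelled Vehicle. Over 110 member values in 11 settings none changed sign, 71 moved by less than their counting interval and 39 by more. The members' median log2 ratio (-2.15) was -2.76 with TMM factors, -2.80 with median-of-ratios factors, -2.62 with the Vehicle spots under 10% mitochondrial UMIs and -1.73 without the Klk1-led region. The last 2 settings were chosen after seeing the data. The log2 ratio of the sum (-2.13) was, for the same settings, -2.75, -2.78, -2.44 and -1.78, and it was -2.22 without mitochondrial and haemoglobin genes, -2.20 with the flagged Vehicle spots and -2.19 as a mean over spots. Relative to principal cells the log2 ratio (-1.13) was -1.21 with thinned spots and turned to 2.76 relative to the distal convoluted and connecting tubule list. At 1000 UMIs a spot, 25.3% of SH045 spots and 57.7% of spots labelled Vehicle held a member. At a clustering resolution of 1.0 the highest SH045 region had 700.2 CPM. The cause of these shifts was not tested. No paired analysis was possible because each group is 1 section. Depth limits low genes: the floor of 3 counts is 0.134 CPM with SH045 and 0.693 CPM labelled Vehicle.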
